A study of Mus musculus with 8 samples.

Results

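Cultured cardiac fibroblasts undergoing reprogramming were followed from Day 7 to Day 14 in 4 of the 8 libraries of the series, with 2 libraries at week 1 and 2 at week 2. All libraries held MICFs, primary cardiac fibroblasts taken from infarcted hearts of adult mice, labelled as overexpressing MGTMyoS. The cells carried tetracycline-inducible lentiviruses for MGT (a single transcript encoding *Mef2c*, *Gata4* and *Tbx5*), for *Myocd*, for *Sall4* and for eGFP, and doxycycline was given to switch these on. The *in vitro* groups stayed in culture and were sorted for eGFP at Day 7 (week 1) or Day 14 (week 2). For reprogramming in culture, the paper's methods name a medium that also held SB431542 and baricitinib. The other 4 libraries came from eGFP+ cells of the same infection that had been transplanted into infarcted hearts and sorted at the same days. By the paper's methods, the recipient mice were given the immunosuppressants tacrolimus, mycophenolate mofetil and methylprednisolone. These 4 libraries serve here only to show where the culture time course differed. Of 54532 annotated genes, the 14300 with an FPKM (fragments scaled by gene length and library size) of at least 0.5 in at least 2 of the 4 culture libraries were compared. No uninfected or untreated culture was analysed here, so actions of the factors, of the medium and of time in culture cannot be told apart. Nothing in the labels says that replicates were separate cultures, and p-values measure only the spread between these libraries. In bulk RNA, fewer cells of a type and less RNA per cell cannot be told apart.

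Direct cardiac reprogramming forces heart transcription factors in fibroblasts, so that some cells switch on sarcomere, calcium-handling and ion-channel genes while the fibroblast programme declines. MEF2C, GATA4 and TBX5 bind regulatory elements of contractile genes, and Myocardin acts there through its DNA-binding partner, serum response factor. The resulting induced cardiomyocyte-like cells (iCMs) usually appear and mature over weeks. Fibroblasts from infarcted hearts start from an activated state with abundant collagen, matrix crosslinking enzymes and contractile actin, and they can still divide.

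Between 12315430 and 13391696 fragments lay on genes in the culture libraries, and both weeks had like shares of mitochondrial transcripts, at 2.66% to 2.87%. Fibroblast RNA was abundant, as labelled, but the summed FPKM of 9 fibroblast markers was 3504 and 3359 at week 1 and 2181 and 2175 at week 2. The collagen genes *Col1a1*, *Col1a2* and *Col3a1* made up most of that sum, and the other 6 came to 935 and 843 and then to 823 and 855. Of these 6, *Dcn* was at 240 and 208 and then at 346 and 356, and *Pdgfra* at 20.2 and 19.8 and then at 24.4 and 23.5. The rest were lower in both week 2 libraries. *Postn* went from 191 and 162 to 112 and 118, and *Vim* from 408 and 382 to 290 and 303. *Thy1* went from 42.2 and 36.7 to 22.6 and 27.7, and *Ddr2* from 33.8 and 34.7 to 27.9 and 27.1. Of the 9 markers 1 passed, *Col1a1*. The culture libraries also held a large amount of macrophage RNA, which the label does not name. By immunofluorescence, the paper found mostly cardiac fibroblasts in MICFs, with a minority of macrophages and few endothelial cells. It does not state the mix after the sort for eGFP. The 8 macrophage markers summed to 4454 and 5069 at week 1 and to 3916 and 4872 at week 2, with ranges that overlapped, against 1521 to 2343 in the heart libraries. Most of this was *Lyz2*, without which the sums were 879.9 and 1055 and then 995 and 1160.5 in culture, against 889.7 and 760.4 and then 660.4 and 546 in heart. *Lyz2*, the lysozyme of myeloid cells, stood at 3574 and 4014 FPKM at week 1 and at 2921 and 3711 at week 2. Of 27 macrophage genes tested, 0 passed the threshold in culture by limma, where 4.36% of all genes did, and 2 fell in heart. In culture 10 of the 27 had an unadjusted p under 0.05, 4 of them higher and 6 lower, and limma voom called 2. Cardiomyocyte markers summed to 111 and 123 at week 1 and to 634 and 559 at week 2. Mesothelial markers went from 231 and 225 to 460.0 and 469.9, those of pericytes and smooth muscle from 47.8 and 53.8 to 126 and 115, and endothelial markers from 8.14 and 9.38 to 29.4 and 22.8. Lymphocyte and Schwann cell markers stayed at or below 0.701 in sum, and mast cell markers at or below 2.05, with *Tpsb2* and *Fcer1a* at 0.

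**Figure D1:**
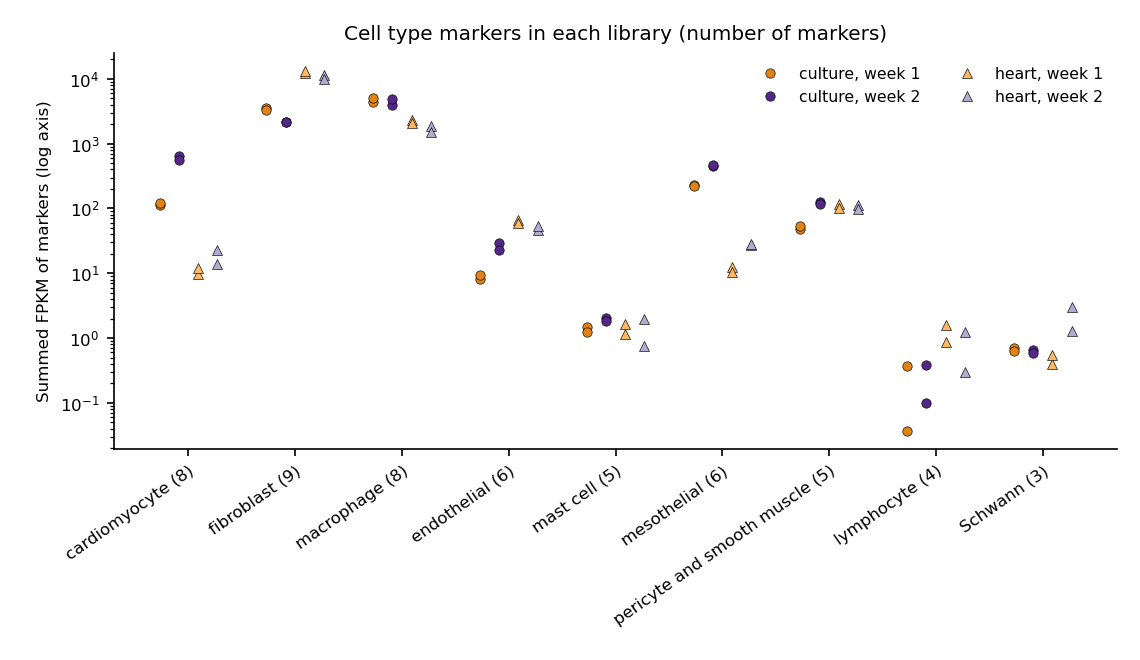
Summed FPKM of the markers of 9 cell types on a log axis, 1 point per library, with culture as circles and transplanted cells as triangles, and the number of markers in brackets. In culture the cardiomyocyte, mesothelial, mural and endothelial sums were higher at week 2 in both libraries, the fibroblast sum was lower, and the macrophage sums of the weeks overlapped.

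Between week 1 and week 2, 451 genes rose and 172 fell in culture, by limma on log2(FPKM + 0.1), where a gene passed if its Benjamini-Hochberg adjusted p was under 0.01 and its fold change over 2. These made up 3.15% and 1.2% of the genes tested, 4.36% together. The libraries of the weeks did not overlap for 9874 of the 14300 genes (69%). Protein-coding genes were 422 of those that rose and 156 of those that fell. Over all genes the median was 0.02 on the log2 scale. When every library was scaled to the same FPKM sum, that median moved to -0.15, and 334 genes rose and 322 fell, so the share of rises among the calls went from 72.4% to 50.9%. Without any 1 of the 4 culture libraries, between 175 and 205 genes rose and between 50 and 76 fell.

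**Figure D2:**
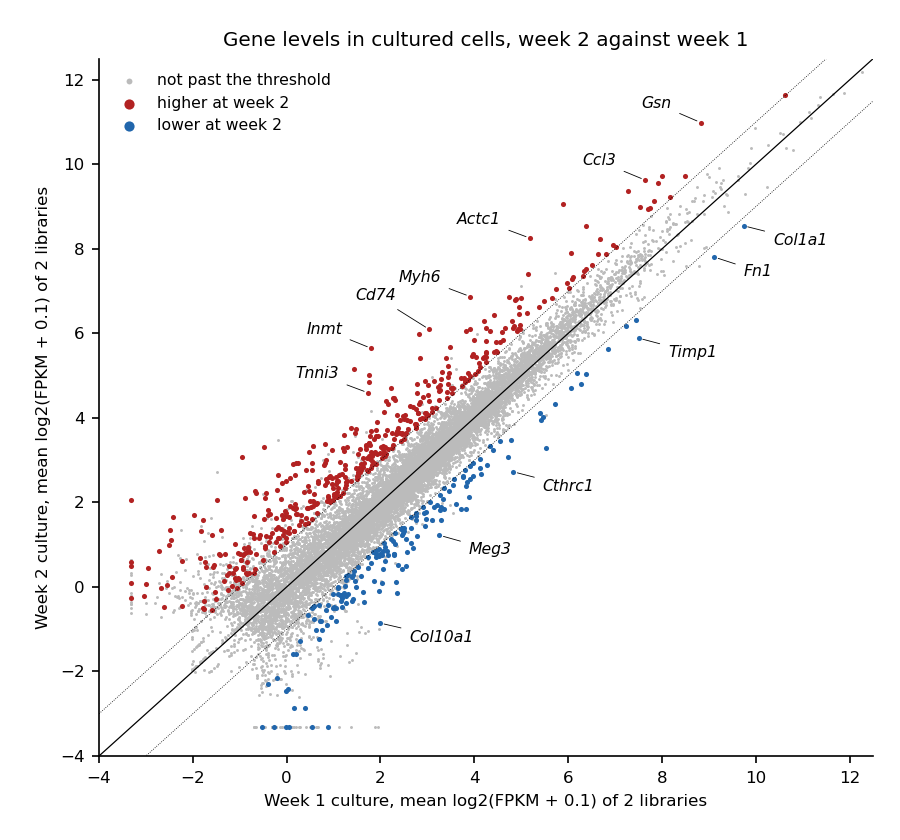
Mean log2(FPKM + 0.1) of the 2 week 2 libraries against that of the 2 week 1 libraries for the genes tested, with the line of equal levels and dotted lines at a 2-fold difference. The 451 genes that rose are red and the 172 that fell are blue, and the named genes are those described in the text.

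The largest rises among well-expressed protein-coding genes joined sarcomere genes with surface and enzyme genes of other kinds. *Inmt*, a methyltransferase of indole amines, was at 2.56 and 4.48 FPKM at week 1 and at 49.3 and 50.8 at week 2, a log2 fold change of 3.85 ± 0.25 (SE, limma adjusted p = 0.000261). *Mgl2* and *Clec10a*, paired C-type lectins of macrophages and dendritic cells, rose by 3.79 ± 0.22 and 3.10 ± 0.17, from at most 0.767 to at least 9.59 FPKM and from at most 3.86 to at least 27.8. *Aqp1*, a water channel, went from 6.60 and 7.39 to 67.0 and 59.5 FPKM (log2 fold change 3.16 ± 0.10), and *Car4*, a membrane-bound carbonic anhydrase, from 3.44 and 3.10 to 32.4 and 32 (3.26 ± 0.43). *Prl7b1*, a member of the prolactin family, rose from 0.772 and 0.796 to 6.96 and 5.49. The other 6 of the 12 were *Myl1*, *Myl7*, *Actc1*, *Myh6*, *Tnni3* and *Cd74*, described below with their groups. Without any 1 library, *Car4* and *Prl7b1* no longer passed, with adjusted p of up to 0.026 and 0.033, while *Inmt*, *Mgl2*, *Clec10a* and *Aqp1* passed each time.

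The largest falls included secreted and membrane proteins. *Tnfrsf11b*, which encodes the RANKL decoy osteoprotegerin, fell from 6.89 and 5.87 to 1.64 and 1.93 FPKM (log2 fold change -1.78 ± 0.12, limma adjusted p = 0.000298), and *Piezo2*, a mechanically gated channel, from 6.0 and 5.69 to 1.71 and 1.65. *Aldh1l2*, a mitochondrial folate enzyme, fell by 2.06 on the log2 scale, *Raet1d*, a ligand of the NKG2D receptor, by 2.04, and *Inhba*, the activin A subunit, by 1.70. *Fpr1*, a receptor for formyl peptides, was at 4.02 and 6.07 FPKM at week 1 and at 0.983 and 1.00 at week 2. *Scel*, sciellin, and *Slc1a6*, a glutamate transporter, fell by 1.86 and 1.76. *Cthrc1*, *Nov* and *Trib3*, described below, were also among the largest falls. The calls of *Fpr1*, *Scel* and *Slc1a6* were lost whenever 1 library was left out, with adjusted p of up to 0.032 among these 3.

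Many genes of heart and skeletal muscle were among those that rose. They were counted over 6 lists covering filaments, Z-disc, calcium handling, channels, and cardiac hormones and metabolism. Over these lists 39 of 109 tested genes rose and 0 fell, which is 35.8% against 3.15% of all genes tested. The 109 had a median of 1.16 on the log2 scale, 92 were above 0, and the median in heart was 0.14. Without any 1 culture library, 12 to 14 of the 109 passed, and the median lay between 1.05 and 1.24. With the replicate number as a block, 27 passed.

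The promoters of *Actc1* (cardiac α-actin) and *Myl7* (atrial regulatory light chain), which are among the 12 largest rises, are shown because each holds 1 CArG box, the element bound by serum response factor, the partner of Myocardin. The sequences are the 250 bases before the RefSeq start site (GRCm38.p6), 5′ to 3′, on the minus strand of chr2:114052876-114053125 for *Actc1*, whose RefSeq start lies 675 bases from the 5′ end of the gene in the deposited table, and of chr11:5898783-5899032 for *Myl7*. Capitals mark the CArG box.
Actc1: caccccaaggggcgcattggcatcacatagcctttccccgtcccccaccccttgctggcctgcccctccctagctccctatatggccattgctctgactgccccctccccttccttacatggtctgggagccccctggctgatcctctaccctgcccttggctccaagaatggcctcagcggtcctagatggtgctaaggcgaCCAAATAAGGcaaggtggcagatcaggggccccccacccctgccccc
Myl7: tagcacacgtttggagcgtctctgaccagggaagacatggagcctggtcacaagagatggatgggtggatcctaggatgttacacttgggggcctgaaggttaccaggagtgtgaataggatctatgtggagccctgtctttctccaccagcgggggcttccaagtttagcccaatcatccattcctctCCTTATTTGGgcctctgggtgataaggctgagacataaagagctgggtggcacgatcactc
Windows were available for 9598 tested genes, and motifs were searched on both strands. A CArG box was present in 3 of the 34 windows of muscle genes that rose (8.82%), in 4 of the 47 of muscle genes that did not pass (8.51%) and in 1.16% of all windows. A MEF2 site was present in 3 (8.82%), 6 (12.8%) and 1.58%, the GATA motif AGATAA in 6 (17.6%), 8 (17%) and 5.56%, and the T-box motif AGGTGT in 5 (14.7%), 5 (10.6%) and 9.1%. The shares of muscle genes that rose and of those that did not pass were not tested against each other.

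Thick filament genes comprised 6 that rose of 15 tested, with a median of 1.38. *Myh6*, the α-myosin heavy chain, was at 12.9 and 17.4 FPKM at week 1 and at 128 and 108 at week 2, a rise of the mean by 7.77-fold (log2 fold change 2.96 ± 0.39, limma adjusted p = 0.00259). *Myl7* went from 54.6 and 65.0 to 594 and 475 (3.15 ± 0.36), and *Myl1*, an essential light chain of fast and fetal muscle, from 3.07 and 2.23 to 37.3 and 33.5 (3.71 ± 0.48). Both libraries of week 2 lay well above both of week 1 for each. *Myl3*, a ventricular light chain, also passed, but its log2 fold change of 3.56 ranged from 1.34 to 5.50 over the alternatives. Its call was lost with the culture libraries alone, under the replicate block and when any 1 library was left out. It was also lost with a pseudocount of 0.01 and with a filter at an FPKM of 1. The calls of *Myh6*, *Myl7* and *Myl1* were lost when any 1 library was left out, with adjusted p of up to 0.026, and 1 of 15 genes then passed.

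Thin filament genes had the largest median of the muscle lists, 1.76, and 8 of 14 rose. *Actc1* was at 34.7 and 38 FPKM at week 1 and at 324 and 288 at week 2 (log2 fold change 3.07 ± 0.26, limma adjusted p = 0.000545), and *Tnni3*, cardiac troponin I, at 2.90 and 3.60 and at 26.5 and 21.9 (2.86 ± 0.26). The troponin T genes of slow skeletal, fast skeletal and cardiac muscle rose together. *Tnnt3* was chosen after its values were seen. *Tnnt1* went from 1.18 and 1.31 to 7.22 and 6.21, *Tnnt3* from 1.35 and 1.65 to 5.07 and 5.76, and *Tnnt2* from 52.3 and 54.0 to 139 and 128 FPKM. The rise of *Tnnt2*, 1.33 ± 0.16 on the log2 scale, was the smallest of the 3 and started from the highest level. *Actc1*, *Tnni3*, *Tnnt1* and *Tnnt3* passed without any 1 library, *Tnnt2* did not (adjusted p of up to 0.020), and 5 of 14 genes then passed.

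Z-disc and costamere genes rose in 7 of 22 cases, with a median of 0.92. *Actn2*, sarcomeric α-actinin, was close to the limit of detection at week 1, with 0.137 and 0.176 FPKM, and reached 3.75 and 2.64 at week 2 (log2 fold change 3.67 ± 0.40, limma adjusted p = 0.00136). *Tcap*, the titin cap protein telethonin, rose from 1.03 and 1.62 to 8.77 and 9.23, and *Unc45b*, a chaperone of myosin folding, from 4.44 and 4.31 to 20.2 and 19.8. *Cryab*, the small heat shock protein of the Z-disc, was high throughout, at 169.8 and 167 and then 222 and 232 FPKM, and its log2 fold change of 0.43 ± 0.07 was under the fold required. Of the list, 1 gene passed without any 1 library, and of the genes named here it was *Unc45b*.

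Calcium handling genes had the lowest median of the muscle lists, 0.63, with 3 of 23 higher. *Pvalb*, the calcium buffer parvalbumin, rose from 0.374 and 0.515 to 4.65 and 3.74 FPKM (log2 fold change 2.98 ± 0.17, limma adjusted p = 0.000167). *Srl*, sarcalumenin of the sarcoplasmic reticulum, rose from 1.22 and 1.48 to 7.70 and 5.95, and *Hrc*, another protein of that store, also passed. Of these *Pvalb* passed without any 1 library, while *Srl* and *Hrc* did not, and *Hrc* was also lost under the replicate block and with the culture libraries alone. *Ryr2*, the calcium release channel of the heart, stood at 1.92 and 2.19 and then at 4.56 and 4.22, with no overlap, but its adjusted p of 0.0119 missed the threshold. That p ranged up to 0.070 over the alternatives, and *Ryr2* passed in several of them.

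Ion channel and connexin genes rose in 7 of 17 cases, with a median of 1.12. *Gja4*, connexin 37, went from 1.04 and 1.07 to 6.95 and 8.12 FPKM (log2 fold change 2.72 ± 0.12, limma adjusted p = 0.000103). *Kcnj8* and *Abcc9*, the pore and sulphonylurea receptor of an ATP-sensitive potassium channel, rose from 0.994 and 1.18 to 8.94 and 6.38 and from 0.698 and 1.28 to 6.12 and 5.70. *Kcnj5*, a subunit of the acetylcholine-gated channel of atrial cells, rose from 6.35 and 7.53 to 17.7 and 16.8. *Gja4* is also an endothelial gene and *Kcnj8* and *Abcc9* are pericyte genes. The summed markers of those cells were higher at week 2 as well, with *Kcnj8* itself in the sum of pericytes and smooth muscle. The part of those cells in these rises was not tested. Without 1 library, 3 to 5 of the 17 passed.

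Markers of cardiac hormones and muscle metabolism, counted as 1 list, rose in 8 of 18 cases, with a median of 1.41. *Mb*, myoglobin, went from 0.827 and 1.30 to 8.04 and 4.78 FPKM, *Pygm*, muscle glycogen phosphorylase, from 1.90 and 2.85 to 10.1 and 9.48, and *Cox7a1*, the muscle form of a cytochrome oxidase subunit, from 5.34 and 4.63 to 17.4 and 16.1. Of these, *Pygm* passed without any 1 library, and the call of *Mb* was also lost under the replicate block. *Nppa*, the atrial natriuretic peptide, stayed at a low level, with 6.31 and 7.74 FPKM at week 1 and 7.69 and 6.29 at week 2.

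**Figure D3:**
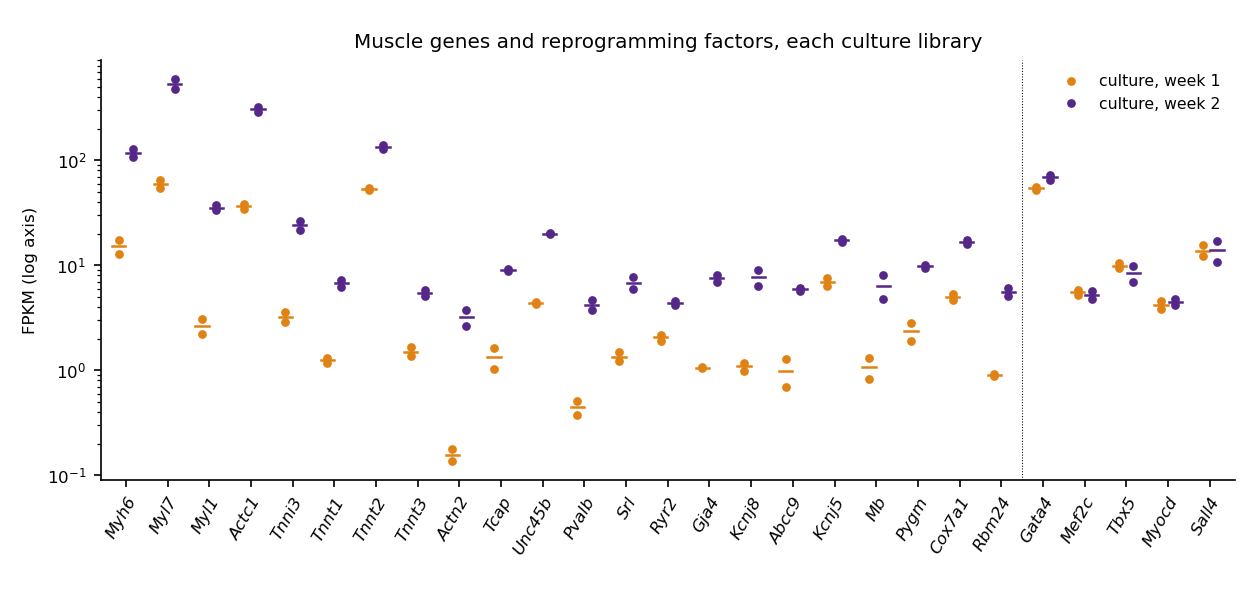
FPKM of muscle genes and, right of the dotted line, the 5 reprogramming factors, on a log axis, with 1 point per culture library and a bar at the mean of 2. *Myh6*, *Myl7*, *Actc1* and *Tnni3* were several-fold higher in both week 2 libraries, while the points of *Mef2c*, *Tbx5*, *Myocd* and *Sall4* overlapped between weeks.

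The reprogramming factors and the transcription factors of heart and muscle held few calls, as did all genes tested. Of the 5 factors, 0 passed the limma threshold, where 4.36% of all genes did. Among these 5, 1 had an unadjusted p under 0.05 and limma voom called 0. *Gata4* was at 52.6 and 55.4 FPKM and then at 73.2 and 64.5 (log2 fold change 0.35 ± 0.07, adjusted p = 0.0144), *Mef2c* at 5.20 and 5.88 and then 5.70 and 4.73, and *Tbx5* at 9.38 and 10.5 and then 9.88 and 6.95. *Myocd* was at 3.83 and 4.52 and then 4.77 and 4.14, and *Sall4* at 12.2 and 15.4 and then 17.2 and 10.7. These values count transcripts of the viral constructs together with those of the endogenous genes. Among 19 muscle transcription and RNA-binding regulators, 1 rose (5.26%, against 3.15% of all genes). It was *Rbm24*, a splicing regulator of sarcomere transcripts, from 0.875 and 0.921 to 6.11 and 5.12 (2.51 ± 0.18, limma adjusted p = 0.000349).

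Matrix genes moved in both directions. Of 29 collagen chains tested, 7 fell and 6 rose, and the median was -0.30. *Col1a1*, the main chain of scar collagen, fell from 852 and 862 to 386 and 363 FPKM (log2 fold change -1.20 ± 0.12, limma adjusted p = 0.000857). *Col5a1*, which controls fibril size, fell from 116 and 113 to 49.6 and 48.8, *Col8a1* from 66.1 and 66.7 to 23.3 and 29.3, and *Col12a1* from 18.7 and 19.8 to 6.77 and 7.91. *Col10a1*, a chain of hypertrophic cartilage, fell furthest, from 3.74 and 4.02 to 0.416 and 0.493. *Col3a1*, the other abundant fibrillar chain, was at 1233 and 1191 and then 703 and 705, and its log2 fold change of -0.78 ± 0.12 was under the fold required, as was that of *Col1a2*, -0.86. The chains that rose belong to basement membrane and microfibril networks, with *Col4a4* going from 1.52 and 1.48 to 5.76 and 5.36 and *Col4a3* from 0.906 and 0.967 to 3.21 and 2.91, beside *Col6a5* and *Col8a2*. Without 1 library, 4 or 5 collagen chains fell and 1 to 3 rose, *Col10a1* and *Col4a3* did not pass, and *Col1a1* passed in 1 of the 4 cases. *Col1a1* also lost its call under the replicate block.

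Of 38 matrix glycoproteins 6 fell and 8 rose, with a median of 0.14, and of 28 collagen processing enzymes 3 fell and 0 rose. *Fn1*, fibronectin, went from 553 and 557 to 226 and 222 FPKM (log2 fold change -1.31 ± 0.14, limma adjusted p = 0.00122), and *Fbn1*, fibrillin of elastic microfibrils, from 82.3 and 83.2 to 33 and 32.9. *Lox*, the collagen crosslinking oxidase, fell from 80.1 and 74.7 to 27.1 and 28.3, 1 of those 3 enzymes. *Cthrc1*, a secreted marker of activated scar fibroblasts, fell from 32.5 and 24.8 to 6.76 and 6.28, and *Nov*, a matricellular CCN protein, from 16.0 and 12.4 to 3.25 and 3.79. *Timp1*, an inhibitor of matrix proteases, fell from 201 and 164 to 56.2 and 62.3, and *Adamts5*, an aggrecanase, from 44.7 and 43.1 to 15.9 and 16.6. All of these but *Fn1* passed without any 1 library, and the adjusted p of *Fn1* then rose to at most 0.014.

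A second set of matrix and fibroblast genes was higher at week 2. *Gsn*, the actin-severing protein gelsolin and a marker of resident fibroblasts, was the most abundant of its list and rose from 438 and 471 to 1996 and 2075 FPKM (log2 fold change 2.16 ± 0.11, limma adjusted p = 0.000121). *Mfap4*, a microfibril glycoprotein, rose from 30.0 and 31.4 to 83.8 and 92.5, *Cilp*, a matrix antagonist of growth factors, from 1.60 and 1.76 to 6.53 and 5.19, and *Aspn*, the small leucine-rich proteoglycan asporin, from 7.75 and 6.34 to 19.2 and 20.5. *Clec3b* (tetranectin) and *Htra3*, a serine protease, rose by 1.53 ± 0.11 and 1.5 ± 0.09. Counted by list, 3 of 10 small leucine-rich proteoglycans rose and 0 fell, and 6 of 40 resident fibroblast genes rose and 1 fell. Among proteases and inhibitors, 4 of 34 rose, with *Plau*, the urokinase activator of plasminogen, going from 59.6 and 80.0 to 141 and 187, and 2 fell. Without 1 library 0 to 2 of the 34 rose, *Plau* passed in none of these cases, and its call was also lost with the culture libraries alone, without a filter and without an intensity trend. The glycoproteins that rose were then 4 to 6, and the resident fibroblast genes 4 to 6. *Acta2*, smooth muscle actin of myofibroblasts, was at 819 and 756 and then at 814 and 785, and *Spp1*, osteopontin, at 231 and 252 and then at 221 and 302, both with overlap between weeks. Of 28 smooth muscle and myofibroblast contractile genes, 2 rose and 1 fell.

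**Figure D4:**
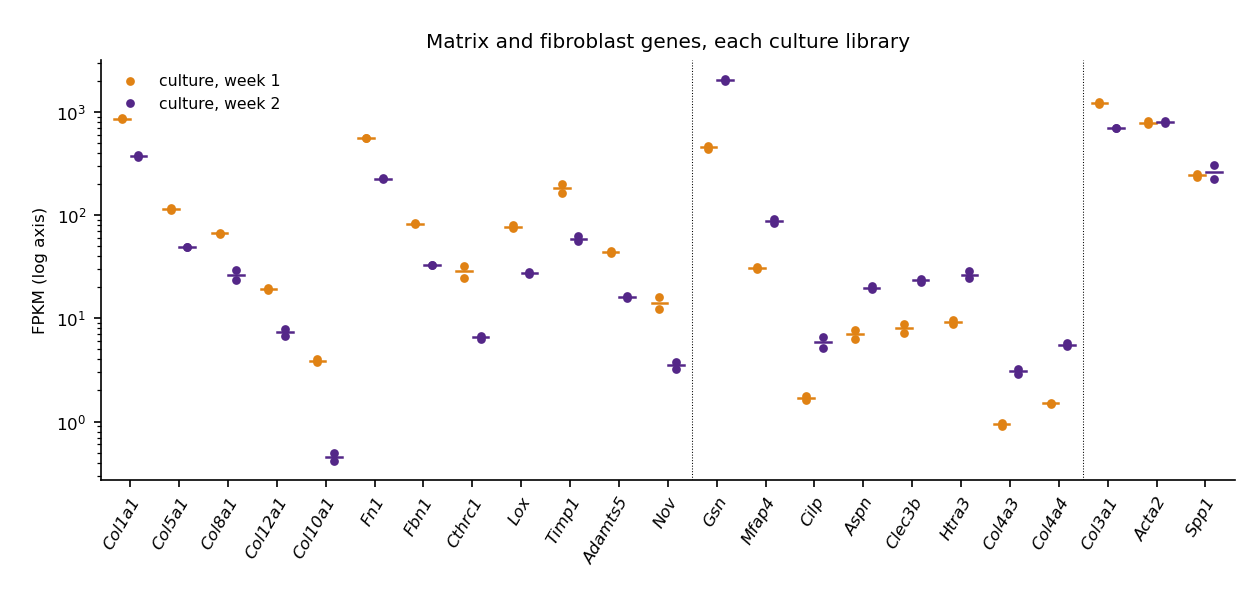
FPKM of matrix and fibroblast genes on a log axis, with 1 point per culture library and a bar at the mean of 2. Dotted lines separate 12 genes that fell, 8 that rose and 3 that did not pass the threshold, of which *Acta2* and *Spp1* overlapped between weeks.

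Genes of the cell cycle had log2 fold changes below 0 almost throughout. Over the S phase and G2/M lists, 31 of 113 genes fell and 0 rose, which is 27.4% against 1.2% of all genes tested, and 111 of the 113 were below 0. Of 46 S phase genes 9 fell (median -0.91 on the log2 scale), and of 67 G2/M genes 22 fell (median -0.99). *Mcm5*, a subunit of the replicative helicase, fell from 10.1 and 10.2 to 3.35 and 3.65 FPKM (-1.51 ± 0.13, limma adjusted p = 0.000562), and *Uhrf1*, which maintains DNA methylation at replication, from 8.37 and 8.49 to 2.77 and 3.04. *Clspn*, the checkpoint mediator claspin, fell from 2.21 and 2.41 to 0.825 and 0.532. *Top2a*, the topoisomerase of dividing cells, fell from 13.5 and 14.6 to 5.21 and 5.0, *Mki67*, the Ki-67 antigen (chosen after its values were seen), from 13.7 and 16.4 to 5.61 and 5.94, and *Pbk*, a mitotic kinase, from 9.50 and 9.50 to 3.11 and 3.78. *Ccnf*, cyclin F, and *Bub1*, a spindle checkpoint kinase, fell by 1.72 and 1.65 on the log2 scale. *Pcna*, the sliding clamp, was at 55.3 and 54.7 and then at 48.6 and 52.8 and did not pass (adjusted p = 0.22).

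These calls were among those most sensitive to the number of libraries. Without 1 library, 3 to 8 of the 113 genes passed, while the median lay between -1.0 and -0.93, and under the replicate block 14 passed. Without a filter on low values or with a pseudocount of 1 the count was 13, and it was 54 with equal FPKM sums and 55 by limma voom. *Mcm5* passed each time, and *Top2a*, *Mki67*, *Ccnf*, *Bub1* and *Clspn* in none, with adjusted p of up to 0.047. The cell cycle genes fell in heart too, where 5 S phase and 40 G2/M genes passed with medians of -0.71 and -1.43, and 1 of the 113 passed for a difference between culture and heart. Among 38 inhibitors and p53 targets, *Cdkn1c*, the inhibitor p57, rose from 2.10 and 1.67 to 5.21 and 4.80, a call lost without any 1 library, and *Rbl1*, the pocket protein p107, was the 1 gene that fell, from 4.44 and 5.08 to 1.60 and 1.63.

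The promoters of *Top2a* and *Mcm5* are shown for the motifs of their groups, the cell cycle element TTTGAA, the E2F motif TTTNGCGC and the CCAAT box. They are again the 250 bases before the RefSeq start (GRCm38.p6), 5′ to 3′, on the minus strand of chr11:99024190-99024439 for *Top2a* and the plus strand of chr8:75109259-75109508 for *Mcm5*. Capitals mark matches on either strand, 2 of TTTGAA and 6 of CCAAT for *Top2a*, and 2 overlapping matches of TTTNGCGC and 2 of CCAAT for *Mcm5*.
Top2a: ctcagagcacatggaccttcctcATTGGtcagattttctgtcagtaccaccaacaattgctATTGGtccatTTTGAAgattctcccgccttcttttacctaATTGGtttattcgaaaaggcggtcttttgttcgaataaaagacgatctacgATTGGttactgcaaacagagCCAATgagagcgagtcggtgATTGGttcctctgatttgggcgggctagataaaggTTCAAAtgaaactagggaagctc
Mcm5: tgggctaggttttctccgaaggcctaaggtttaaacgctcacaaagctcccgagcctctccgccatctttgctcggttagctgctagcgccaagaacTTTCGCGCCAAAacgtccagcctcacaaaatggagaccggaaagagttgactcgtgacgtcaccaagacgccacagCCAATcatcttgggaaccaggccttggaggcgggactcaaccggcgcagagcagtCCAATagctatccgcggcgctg
A CCAAT box was present in 18 of the 23 windows of cell cycle genes that fell (78.3%), in 45 of the 70 of those that did not pass (64.3%) and in 36.3% of all windows. TTTGAA was present in 7 (30.4%), 19 (27.1%) and 10.2%, and TTTNGCGC in 2 (8.7%), 8 (11.4%) and 2.04%. The shares of the cell cycle genes that fell and of those that did not pass were likewise not tested against each other.

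Chemokines, cytokines and early response genes held rises and 0 falls. Of those tested, 32%, 13.9% and 33.3% rose, against 3.15% of all genes, of which 1.2% fell. Of 25 CC and CXC chemokines tested, 8 rose and 0 fell, and the median log2 fold change was 1.00, while the median of the same genes in heart was -0.43. *Ccl2* (chosen after its values were seen) and *Ccl7*, which attract monocytes, went from 236 and 244 to 663 and 853 FPKM and from 254 and 255 to 745 and 955 (log2 fold change 1.65 ± 0.19 and 1.73 ± 0.20, limma adjusted p = 0.00149 and 0.00179). *Ccl3* and *Ccl4*, products of activated macrophages, went from 188 and 212 to 687 and 913 and from 149 and 159 to 569 and 777, and *Ccl12* from 10.5 and 9.23 to 27.7 and 41.9. *Ccl24*, which attracts eosinophils, rose as well. *Tnf* rose from 78.0 and 89.1 to 319 and 431, and *Nfkbia*, the NF-kB inhibitor that NF-kB itself induces, from 116 and 133 to 255 and 296. In all, 5 of 36 genes of the cytokine and NF-kB response rose and 0 fell, and 1 or 2 rose without 1 library.

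The chemokine calls depended on the number of libraries, and 0 to 5 of the 25 passed when 1 was left out. *Ccl4* and *Tnf* passed in none of these cases, with adjusted p of up to 0.064, and both were also lost under the replicate block. *Ccl24* and *Nfkbia* likewise passed in none, and *Ccl24* was lost under the block and with the culture libraries alone. In every one of *Ccl2*, *Ccl3*, *Ccl4*, *Ccl7* and *Tnf*, the second library of week 2 was the highest. Of 30 immediate early genes 10 rose and 0 fell, and 7 to 9 passed without 1 library. *Egr3* went from 15.6 and 21.8 to 78.9 and 78.2 FPKM and *Nr4a3*, an orphan nuclear receptor, from 28.5 and 35.3 to 107 and 124. *Junb*, the AP-1 subunit and the most abundant of the list, was at 423 and 435 and then 676 and 732, and its log2 fold change of 0.71 ± 0.09 was under the fold required.

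MHC class II genes, which present peptides to helper T cells, rose in both environments. All 4 of *Cd74*, *H2-Aa*, *H2-Eb1* and *H2-Ab1* passed, of 6 genes tested with a median of 2.33, and all 4 passed in every case without 1 library. *Cd74*, the invariant chain, was at 7.42 and 8.88 FPKM at week 1 and at 65.2 and 71.7 at week 2 (log2 fold change 3.06 ± 0.10, limma adjusted p = 3.96e-05). *H2-Aa* rose from 1.25 and 1.5 to 9.30 and 10.8, *H2-Eb1* from 2.36 and 2.60 to 14.4 and 12.7, and *H2-Ab1* from 2.58 and 2.78 to 13.1 and 13.4. The class II genes also rose in heart, from 129 and 116 to 313 and 289 for *Cd74*. The macrophage marker sums of the 2 weeks overlapped in culture, but single markers went either way. *Csf1r* went from 57.8 and 75.6 to 90.8 and 99.5 and *C1qa* from 432 and 506 to 509 and 611. *Adgre1* went from 107 and 134 to 101 and 106 and *Itgam* from 7.29 and 8.41 to 6.49 and 6.59. The part of macrophages in the class II rise was not tested.

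Interferon-stimulated genes and class I genes held few calls, as did all genes tested. Of 50 interferon-stimulated genes tested, 1 rose (2%, against 3.15% of all genes) and 0 fell. It was *Irf1*, from 27.1 and 29.8 to 67.7 and 73.0 FPKM (limma adjusted p = 0.0004). The median of the list was 0.04 (-0.12 with equal FPKM sums). *Isg15*, a ubiquitin-like modifier, was at 7.13 and 8.86 and then at 14.4 and 15.4, without passing (log2 fold change 0.90 ± 0.25, adjusted p = 0.0372). *Mx1*, *Oas2* and *Oas3*, antiviral effectors, stayed below the filter, with at most 3 fragments in any culture library, and *Usp18* with at most 12. Of 22 class I and antigen processing genes, 0 passed by limma, where 4.36% of all genes did. Of the 22, 8 had an unadjusted p under 0.05, and limma voom called 1.

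Markers of vascular and lining cells were also among the genes that rose. Of 21 endothelial genes tested, 16 rose (76.2%, against 3.15% of all genes) and 0 fell, where 1.2% of all genes did. Their median was 1.40 on the log2 scale, against -0.03 in heart. *Cldn5*, the tight junction claudin of endothelium, went from 1.56 and 1.75 to 10.8 and 10.1 FPKM (2.59 ± 0.12, limma adjusted p = 0.000111), and *Sox18*, an endothelial transcription factor, from 0.682 and 0.868 to 5.31 and 4.4. *Pecam1* (CD31), *Cdh5* (VE-cadherin) and *Kdr* (VEGF receptor) rose by 1.60 ± 0.15, 1.59 ± 0.15 and 1.54 ± 0.16. *Vwf*, the clotting factor that endothelium stores, stood apart at 0.287 and 0.413 and then at 0.0720 and 0.137 FPKM, under the filter. Levels stayed low in absolute terms, since the 6 endothelial markers together reached 29.4 FPKM at most. Without 1 library, 5 to 9 of the 21 genes passed, and the count was 8 with a pseudocount of 1 and 9 with the culture libraries alone.

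Pericyte and mesothelial genes followed, with 41.2% and 29.2% of those tested higher, against 3.15% of all genes. Of 17 pericyte and mural genes, 7 rose and 0 fell, and 5 to 8 rose without 1 library. *Rgs5*, a regulator of G protein signalling, went from 4.16 and 5.73 to 22.8 and 19.9 FPKM (log2 fold change 2.10 ± 0.18, limma adjusted p = 0.000562). The list was mixed, with 5 of the 17 below 0, and of 16 with an unadjusted p under 0.05, 12 were higher. The pericyte marker *Cspg4* was at 1.30 and 1.62 and then at 1.23 and 1.23. Of 24 mesothelial and epicardial genes, 7 rose. *Msln*, mesothelin, went from 32.5 and 29.2 to 98.9 and 97.6, *Upk3b*, a uroplakin, from 69.1 and 67.1 to 152 and 159, *Krt19* from 4.27 and 4.26 to 22.5 and 19.8 and *Krt7* from 2.40 and 2.05 to 8.52 and 10. All of these were higher in both libraries of week 2, and all but *Krt7* passed without any 1 library. *Mcpt4*, a chymase of connective tissue mast cells, went from 64.1 and 61.5 to 146 and 146 (1.22 ± 0.07). The mast cell markers *Cpa3*, *Tpsb2*, *Ms4a2* and *Fcer1a* were at or below 0.0784 FPKM, and *Kit* was at 1.45 and 1.19 and then at 2.02 and 1.71.

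Genes of signalling pathways that passed moved mostly upward, as did the calls over all genes, of which 72.4% were rises. *Bmp2* rose from 9.04 and 12.1 to 40.6 and 45.6 FPKM (log2 fold change 2.03 ± 0.16, limma adjusted p = 0.00042), 1 of 4 of the 21 BMP and Id genes to rise, and 1 fell. Of 28 genes of TGF-beta signalling, *Gdf15* rose and *Inhba* fell, the latter from 10.3 and 9.11 to 2.83 and 2.98. In the Notch list of 17, the ligands went opposite ways, *Dll4* from 0.472 and 0.556 to 2.67 and 1.93 and *Jag1* from 41.7 and 42.1 to 19.5 and 15.2, and *Notch4* rose. Of 39 growth factor genes 8 rose (20.5%, against 3.15% of all genes) and 0 fell, among them *Igfbp5*, a binding protein of insulin-like growth factors, from 96.8 and 109 to 318 and 288. Of 26 Wnt genes, 2 rose. With equal FPKM sums 4 growth factor genes rose and 0 fell, and 2 BMP and Id genes rose and 2 fell. In the TGF-beta list 1 then rose and 2 fell, in the Wnt list 1 and 1, and in the Notch list 2 and 1. Without 1 library, 3 or 4 growth factor genes, 1 or 2 BMP and Id genes and 0 Wnt genes rose, and *Gdf15* and *Notch4* each passed in 1 of the 4 cases.

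Energy metabolism was counted over 3 lists. All 75 oxidative phosphorylation genes had a log2 fold change above 0, between 0.05 and 0.80 with a median of 0.43, and 0 of them passed the limma threshold or that of limma voom, while 64 had an unadjusted p under 0.05. Their median was 0.27 when libraries were scaled to the same FPKM sum, against -0.15 for all genes. Among 37 glycolysis and hypoxia genes 4 rose, with *Aldoc*, an aldolase, going from 15.7 and 14.2 to 68.4 and 68.8 FPKM, *Car9*, a hypoxia-induced carbonic anhydrase, from 2.26 and 1.54 to 8.97 and 9.61, and *Egln3*, an oxygen-sensing hydroxylase, from 9.05 and 10.1 to 27.6 and 27.3 (log2 fold change 1.51 ± 0.08, limma adjusted p = 0.000167). The median of that list was 0.06, and -0.11 with equal FPKM sums. Among 40 fatty acid genes 4 rose, with *Fabp3*, the heart fatty acid-binding protein, from 27.5 and 21.4 to 58.2 and 56.5 and *Fabp4*, the form of fat and endothelium, from 3.02 and 2.77 to 7.52 and 7.44. *Asns*, asparagine synthetase, and *Trib3*, a stress-induced pseudokinase, were the 2 of 26 unfolded protein response genes to fall, from 29.0 and 23.6 to 8.14 and 8.58 and from 13.6 and 10.7 to 3.78 and 3.77. Without any 1 library *Aldoc*, *Car9* and *Fabp3* did not pass, with adjusted p of up to 0.062, and 1 to 3 glycolysis and hypoxia genes and 0 to 2 fatty acid genes rose.

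**Figure D5:**
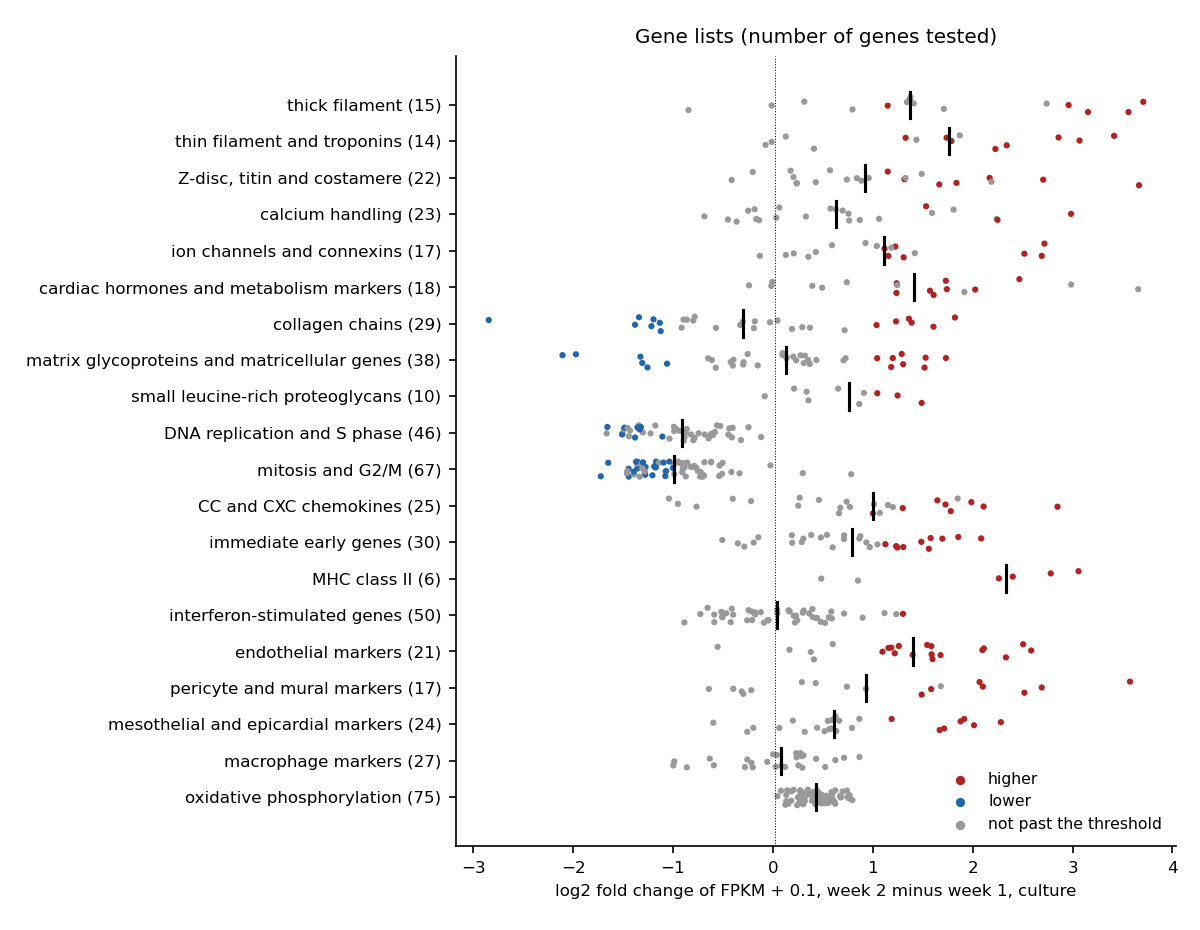
Log2 fold change of each tested gene in 20 lists, week 2 minus week 1 in culture, with a bar at the median of each list and a dotted line at the median of all genes. Red points rose, blue points fell, and grey points did not pass the threshold. The muscle, MHC class II and endothelial lists lie to the right and the cell cycle lists to the left.

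In the remaining lists 0 genes fell. Of 24 heat shock genes 1 rose, of 29 NRF2 targets and metallothioneins 4 rose (13.8%), of 35 cholesterol synthesis genes and regulators 1 rose, and of 19 complement genes 3 rose (15.8%), against 3.15% of all genes. Of 20 interferon receptors and regulators 0 passed by limma or limma voom, and 9 had an unadjusted p under 0.05. Of 6 lymphocyte and mast cell genes above the filter 1 rose, *Mcpt4*, and of 10 Schwann and neuronal genes 1 rose. Of 7 adipocyte and chondro-osteogenic genes 3 rose (42.9%). Without 1 library 0 or 1 of these passed, with 0 heat shock and Schwann genes, 2 complement genes and 2 to 4 NRF2 genes.

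The same interval in transplanted cells gave fewer calls among these genes, 190 higher (1.33%) and 151 lower (1.06%) of the 14300, or 2.38% together. The 14300 were chosen by their level in culture alone, so genes expressed only in heart could not be counted. How far this lowers the count in heart was not tested. Of the 451 that rose in culture and the 190 that rose in heart, 68 were shared, and of the 172 and 151 that fell, 43 were shared. A difference between the time courses passed the limma threshold in the interaction contrast for 286 genes, 191 higher and 95 lower in culture (1.34% and 0.664%), and 159 of these were among the 623 called in culture. Without 1 culture library between 2 and 18 genes passed for this difference, with the replicate block 44 and without an intensity trend 49. The log2 fold changes of *Actc1*, *Tnni3* and *Tnnt3* in culture exceeded those in heart (0.66, 0.10 and -0.21, none past the threshold) by 2.41 ± 0.36, 2.76 ± 0.37 and 1.99 ± 0.21, while the difference of *Myh6*, 2.72 ± 0.55, missed the threshold (adjusted p = 0.0247). In heart *Actc1* stood at 2.64 and 4.08 and then at 4.11 and 6.66 FPKM. Those of *Timp1*, *Adamts5* and *Nov* in heart were -0.21, 0.50 and 0.52, and the values in culture minus those in heart were -1.40, -1.93 and -2.49. *Gsn* rose in both, by 2.16 in culture and 2.36 in heart. Just 5 genes were called in opposite directions, and are named after their values were seen. All 5 rose in culture and fell in heart, and they were *H19*, *Mcpt4*, *Megf6*, *Serpind1* and the small nuclear RNA gene *Gm23264*. *Mcpt4* went from 6.48 and 5.82 FPKM to 1.12 and 1.14 in heart.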

How the data were processed

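The study sequenced mRNA libraries (SMARTer kit, Novogene) from eGFP+ MICFs. The authors deposited FPKM per gene and library, and HISAT2 2.0.5, CASAVA and the mm10 build are named in the submitters' processing notes, while the counting tool is not given in the sources used here. The FPKM in the deposited table already include a scaling between libraries: multiplied by gene length they were whole multiples of 1 step for 100% of values (tolerance 0.01), and the library size so recovered was 1.09 to 1.15 times the fragments on genes in culture. Gene coordinates match GENCODE vM21 for 98.3% of shared identifiers.

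Here log2(FPKM + 0.1) was fitted with limma 3.58.1 in R 4.3.3 over all 8 libraries in 4 groups, with moderated variance and an intensity trend, for genes with FPKM of at least 0.5 in at least 2 culture libraries. The contrasts were week 2 minus week 1 in culture, and its difference from the same contrast in heart. Adjusted p-values are Benjamini-Hochberg over 14300 genes. Genes passed at adjusted p under 0.01 and absolute log2 fold change over 1. Fold changes on this scale understate those of low genes. Errors of log2 fold changes are standard errors. The procedure was also run on simulated fragments with known changes and the same added spread for all genes. That run cannot show how the calls hold at the spread of the real libraries.

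The comparison and the gene lists were chosen with earlier results of these data known. Genes named were drawn from those the study named, the factors and the 12 largest rises and falls (protein-coding, no overlap between weeks, mean FPKM of 5 or more in the week with the higher level). Up to 4 called members per direction and the highest member of each list were added. This rule gave 200 tested genes, and not all of them are described. Of the study's genes, *Ifit1*, *Ifit3*, *Isg20* and *Oas1a* are left out. Cell type markers come from separate sets, and others are said to be chosen later. Of the 12 largest falls, 1 is not reported here. Lists carry counts and medians and no test. Culture replicates differed by more than sampling noise (chi-square per gene 4.63 and 4.25). Same-numbered libraries did not deviate together (correlation over genes -0.03 in culture), so no pairing was used. Alternatives covered pseudocounts, filters, scalings, variance trend, limma voom on recovered fragments, thresholds, a replicate block, the culture libraries alone, and each library left out. 1 was added after seeing the data. Promoter windows and synonyms came from RefSeq. Python 3.11.15, pandas 2.3.3, numpy 2.4.6 and matplotlib 3.10.9 were used.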

Additional observations from a re-analysis of the deposited data

Results flagged for a closer look

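Among the genes named, those below had a time course in culture that differed from that in heart by the interaction contrast of limma (adjusted p under 0.01 and a difference over 1 on the log2 scale, in either direction). Values are the log2 fold change in culture minus that in heart, and no cause was tested. Of these 62 genes, between 1 and 10 passed with 1 culture library left out, 14 under the replicate block, 9 without an intensity trend and 26 without a filter on low values. Outliers within a group were not sought, since each group has 2 libraries.

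Muscle and channel genes differed by 2.41 for *Actc1*, 2.76 for *Tnni3*, 1.99 for *Tnnt3*, 2.33 for *Unc45b*, 1.98 for *Pvalb*, 2.49 for *Gja4*, 2.68 for *Kcnj8*, 2.99 for *Abcc9*, 2.28 for *Kcnj5* and 1.86 for *Fabp3*. Matrix and fibroblast genes with a lower value in culture were at -1.13 for *Col8a1*, -1.16 for *Fbn1*, -1.41 for *Cthrc1*, -2.49 for *Nov*, -1.02 for *Lox*, -1.40 for *Timp1* and -1.93 for *Adamts5*. Matrix genes with a higher value in culture differed by 1.08 for *Mfap4*, 1.30 for *Aspn*, 1.94 for *Spp1* and 2.29 for *Plau*. Chemokine and early response genes differed by 2.64 for *Ccl2*, 2.72 for *Ccl3*, 2.46 for *Ccl7*, 2.38 for *Ccl12*, 1.32 for *Nfkbia*, 1.87 for *Egr3*, 1.88 for *Nr4a3* and 1.64 for *Irf1*. MHC class II genes and the lectin gene *Clec10a* were at 1.76 for *Cd74*, 1.60 for *H2-Aa*, 1.18 for *H2-Eb1* and 2.40 for *Clec10a*. Endothelial, mural and mast cell genes differed by 1.89 for *Cldn5*, 2.38 for *Sox18*, 1.72 for *Pecam1*, 2.23 for *Cdh5*, 1.83 for *Kdr*, 2.71 for *Rgs5* and 3.56 for *Mcpt4*. Signalling genes differed by 2.30 for *Bmp2*, 1.87 for *Dll4*, 2.22 for *Notch4*, 1.31 for *Igfbp5*, -1.06 for *Inhba* and -1.21 for *Jag1*. Metabolic and transport genes were at 2.77 for *Aqp1*, 1.80 for *Egln3*, 1.55 for *Fabp4*, -1.33 for *Asns*, -2.01 for *Trib3*, -1.26 for *Aldh1l2*, -1.54 for *Phgdh*, -1.0 for *Slc7a5* and -1.25 for *Slc1a4*. Other large falls were at -2.88 for *Fpr1*, -1.92 for *Tnfrsf11b* and -1.15 for *Piezo2*. Noncoding RNAs and genes with opposite calls were at 2.74 for *H19*, -1.37 for *Rian*, 3.31 for *Serpind1* and 2.54 for *Megf6*.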

How the results depend on the processing

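No named gene past the threshold changed direction under any alternative that held it, which were 21, or 20 for the noncoding *H19*, *Meg3*, *Rian* and *Neat1*. Of 117 such genes 91 kept their call in all that left no library out, 17 or, for those 4, 16. With 1 culture library left out, between 175 and 205 genes rose, between 50 and 76 fell, and between 2 and 18 differed between the time courses, against 451, 172 and 286, and 66 of the 117 kept their call each time. A single library then stands for its week, with the spread taken from the other groups.

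The replicate number as a block gave 296 higher, 98 lower and 44 differing genes. The replicate numbers were not shown to pair the libraries, and with the 4 culture libraries alone the block left 392 higher and 118 lower. A pseudocount of 1 left 81 lower. Equal FPKM sums gave 322 lower and quantile normalization 281. Without an intensity trend 49 genes differed between the time courses, without a filter 108, and with protein-coding genes only 453. Limma voom on recovered fragments gave 607 higher, 278 lower and 505 differing. An adjusted p under 0.05 gave 310 lower and 665 differing, no minimum fold 1036 higher and 624 lower, and an unadjusted p under 0.01 289 lower and 756 differing. The cause of these shifts was not tested.

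Genes near 0 changed sign without passing the threshold. With equal FPKM sums the log2 fold changes were -0.0733 for *Myocd*, -0.0725 for *Spp1* and -0.15 for *Acta2*, with quantile normalization -0.23 for *Spp1* and -0.12 for *Acta2*, and without scaling -0.0281 for *Acta2*. With each library left out in turn, they ranged from -0.22 to 0.043 for *Mef2c*, from -0.024 to 0.21 for *Myocd*, from -0.35 to 0.32 for *Sall4*, from -0.035 to 0.0812 for *Acta2*, from -0.13 to 0.32 for *Spp1* and from -0.15 to 0.14 for *Nppa*. Depth limits genes under about 0.2 FPKM, where a library holds few fragments.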

Other observations

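Several enzymes and carriers of amino acids fell in culture. They were picked after their values were seen, from no fixed list, and stand here as single genes. *Phgdh*, the first enzyme of serine synthesis, was at 46.0 and 39.9 FPKM and then at 14.0 and 16.6 (log2 fold change -1.48 ± 0.13, limma adjusted p = 0.000663). *Pycr1*, which makes proline in mitochondria, went from 5.50 and 4.22 to 1.78 and 1.40. *Slc7a5*, the large neutral amino acid transporter, fell from 27.4 and 27.4 to 10.6 and 11.5, and *Slc1a4*, a carrier of alanine and serine, from 10.9 and 12.3 to 4.94 and 5.47. They join *Asns* and *Aldh1l2*, described with the falls above. *Psat1*, the next enzyme of serine synthesis, was at 11.3 and 11.4 and then at 10.9 and 9.97 and did not pass, and *Atf4*, the transcription factor that induces many of these genes, had a log2 fold change of 0.46 ± 0.06. In heart the log2 fold changes of *Phgdh*, *Slc7a5* and *Slc1a4* were 0.06, -0.30 and 0.11, and each differed from that in culture by the interaction contrast.

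Long noncoding RNAs, also chosen after their values were seen, went both ways. The imprinted *Meg3* and *Rian*, made from a shared locus, fell from 9.64 and 9.29 to 2.55 and 1.96 FPKM and from 5.56 and 4.66 to 1.30 and 1.36 (log2 fold change -2.03 ± 0.14 and -1.86 ± 0.12, limma adjusted p = 0.000298 and 0.000226). *H19*, another imprinted RNA, rose from 18.8 and 18.9 to 45.6 and 49.4, while in heart it went from 66.5 and 74.1 to 29.1 and 23.7. *Neat1*, the scaffold of paraspeckles, rose from 5.01 and 4.97 to 12.3 and 13.5, a call lost under the replicate block and without any 1 library.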
